A study of Homo sapiens with 8 samples.

Results

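Gene fusions that place an ETS transcription factor under an androgen-driven promoter are a frequent lesion of prostate cancer, and the genes that take part in them are described here by the mTOR peaks around them. They are 5 genes known as 5′ fusion partners (TMPRSS2, SLC45A3, NDRG1, HERPUD1 and ACSL3) and 2 ETS genes known as 3′ partners (ERG and ETV1). A peak was included when the deposited annotation named 1 of these 7 genes as the nearest and placed the peak at most 100 kb from its transcription start site (TSS). This gave 51 of the 125713 peaks on chromosomes 1 to 22, X and Y in the 4 deposited lists.

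The peaks come from chromatin immunoprecipitation of mTOR in LNCaP, an established line of human prostate cancer cells that responds to androgen. The cells carried an empty hairpin vector (shEV) or a hairpin against the pioneer factor FoxA1 (shFoxA1). All were first deprived of androgen for 48 h, in 2% charcoal-stripped serum. For 24 h they then received either the vehicle ethanol (EtOH, 0.1%) or the synthetic androgen R1881 (10 nM). How far the hairpin lowered FoxA1 was not measured in these files. Each of the 4 combinations is a single immunoprecipitated library, so nothing below has a replicate check or a p-value, and the 4 matching input libraries were not analysed here.

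In such fusions the start of an androgen-responsive gene is joined to the body of an ETS gene, so that androgen receptor acting on the first drives expression of the second. TMPRSS2, a membrane serine protease gene controlled by an upstream androgen receptor enhancer, is the usual donor and ERG the usual acceptor. ETS proteins share a DNA-binding domain that recognises a GGAA core. LNCaP cells are known to lack the TMPRSS2-ERG fusion and to carry an ETV1 locus inserted into another chromosome. Peaks are placed on the reference genome, so positions at ETV1 are reference positions and not those of the rearranged copy.

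The lists of shEV EtOH, shEV R1881, shFoxA1 EtOH and shFoxA1 R1881 held 24948, 26074, 35121 and 39570 peaks. The files give no read totals, so the part of sequencing depth in these lengths was not tested. As a check of the cell type at the level of loci, which is not expression, 6, 6, 6 and 9 of 9 luminal prostate genes had a peak within 100 kb in the 4 lists in that order, against 2, 3, 4 and 4 of 9 genes of basal, mesenchymal, blood and neuroendocrine cells. The luminal set includes TMPRSS2 itself. In the other set CHGA (chromogranin A) had 5, 2, 6 and 4 peaks and TP63 (a basal factor) 1, 6, 2 and 1, while KRT5 and KRT14 (basal keratins), CD3E (T cells) and SYP (synaptophysin) had none in any list.

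The promoter windows of 5 of the 7 genes were in the RefSeq table used here (build GRCh38.p14, from 250 bases before to 50 after the start); TMPRSS2 and NDRG1 were not matched. Those of SLC45A3 and ERG are shown because mTOR peaks reached them only in shFoxA1 lists, and that of ACSL3 because it has a similar GC content and lay under no peak in any list. The SLC45A3 window lies at chr1:205680460-205680759 and the ERG window at chr21:38660618-38660917, both on the minus strand, and the ACSL3 window lies at chr2:222860786-222861085 on the plus strand. Capitals mark the bases under the shFoxA1 EtOH peak.
SLC45A3: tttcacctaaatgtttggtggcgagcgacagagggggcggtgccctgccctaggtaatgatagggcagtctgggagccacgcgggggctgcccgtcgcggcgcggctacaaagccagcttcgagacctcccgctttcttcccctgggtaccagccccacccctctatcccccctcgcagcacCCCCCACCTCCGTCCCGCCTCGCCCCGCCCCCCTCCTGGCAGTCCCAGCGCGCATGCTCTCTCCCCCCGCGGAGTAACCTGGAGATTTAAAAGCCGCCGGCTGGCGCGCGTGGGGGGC
ERG: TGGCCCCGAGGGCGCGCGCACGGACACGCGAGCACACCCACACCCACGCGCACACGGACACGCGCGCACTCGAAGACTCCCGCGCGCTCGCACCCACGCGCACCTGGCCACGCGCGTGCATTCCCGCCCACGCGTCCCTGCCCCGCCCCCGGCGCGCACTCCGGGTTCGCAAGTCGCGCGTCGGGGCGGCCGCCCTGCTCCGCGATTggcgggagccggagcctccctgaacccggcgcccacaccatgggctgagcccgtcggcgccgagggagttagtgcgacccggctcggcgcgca
ACSL3: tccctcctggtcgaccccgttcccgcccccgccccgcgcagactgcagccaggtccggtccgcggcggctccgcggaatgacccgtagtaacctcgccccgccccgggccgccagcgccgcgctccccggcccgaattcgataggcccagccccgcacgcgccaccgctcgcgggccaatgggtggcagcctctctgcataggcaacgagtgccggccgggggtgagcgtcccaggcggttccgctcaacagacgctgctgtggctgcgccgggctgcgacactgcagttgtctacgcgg

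The shFoxA1 EtOH peak covered 118 of the 300 bases of the SLC45A3 window and 207 of the ERG window. The shFoxA1 R1881 peak covered all 300 bases at ERG and none at SLC45A3, where it ended inside intron 1. G and C made up 69% of the SLC45A3 window, 77% of the ERG window, 74% of the ACSL3 window and 70.3% of the HERPUD1 window, against a median of 58.7% over all 34943 windows in the table. CG dinucleotides numbered 26, 53, 41 and 37 in the same order, against a median of 14. The other windows of these genes, none of them under a peak, had a lower GC content: 38.7 to 45.7% in the 3 further ERG windows and 42.3 to 59% in the 6 ETV1 windows. Longer motifs were searched on both strands in these windows: CCGGAA (a longer ETS motif, which holds the GGAA core), AGAACA (the hexamer bound by androgen receptor), and TGTTTAC and TGTTTGC (forkhead motifs). None was found in the SLC45A3, ACSL3 or HERPUD1 window or in any of the 4 ERG windows. Of the 6 ETV1 windows, 3 held CCGGAA and 2 of those also held AGAACA, and these 2 overlap almost fully. Over all windows 17.2%, 14.8%, 3.42% and 3.89% held the motifs. The GGAA core itself, present in 95.4% of windows, occurred 1 time in the SLC45A3 window, 1 in the ERG window shown, 3 at ACSL3 and 1 at HERPUD1, 2 to 6 times in the further ERG windows and 3 to 6 times in the ETV1 windows. Over all windows, 8.36% (EtOH) and 7.64% (R1881) lay under a shEV peak, 17.2% (EtOH) and 16.4% (R1881) lay under a shFoxA1 peak, and 3.73% had the pattern of ERG, a peak in both shFoxA1 lists and neither shEV list.

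The fewest peaks around the 7 genes were in shEV EtOH and the most in shFoxA1 R1881. In shEV cells 4 peaks were found with EtOH and 12 with R1881, and in shFoxA1 cells 10 with EtOH and 25 with R1881, or 1.60, 4.60, 2.85 and 6.32 per 10000 peaks of each list. The order of the R1881 and EtOH lists within each hairpin was thus the same with and without an allowance for list length. With each list limited to its 10000 highest-scoring peaks, 2, 7, 2 and 4 were left in the same order, so that shEV R1881 then had the most. A peak was present at 3, 5, 5 and 7 of the 7 genes, and within the same distance 39.7%, 40.6%, 51.7% and 54.4% of the 20033 coding genes had one. TMPRSS2 and NDRG1 together held 34 of the 51 peaks, and the 2 ETS genes held 7.

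**Figure D1:**
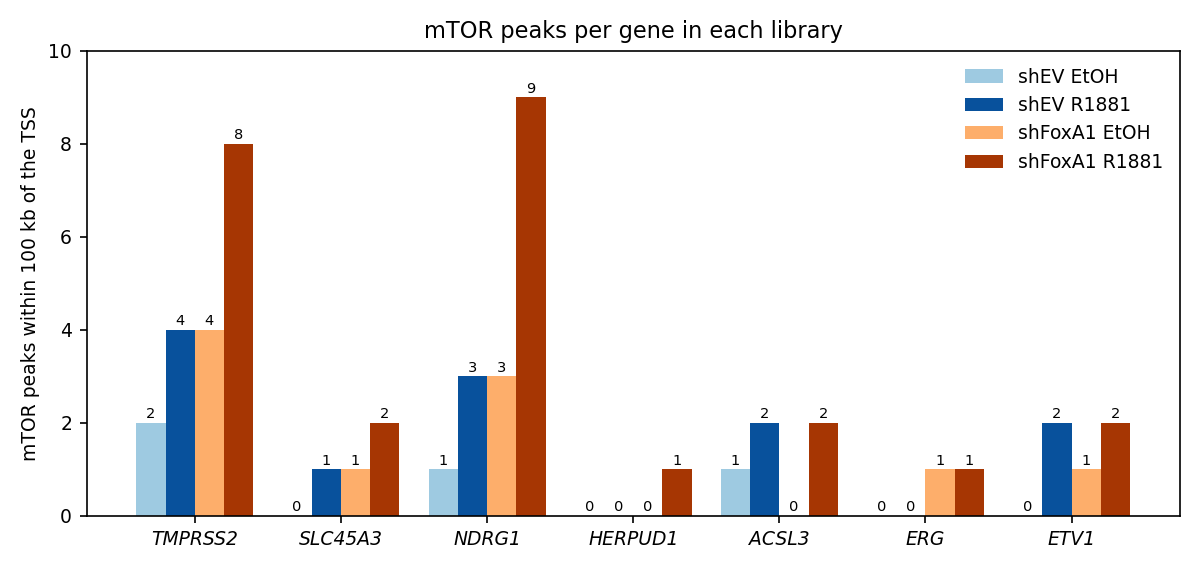
Number of mTOR peaks within 100 kb of the TSS (vertical axis) for each of the 7 genes, with 1 bar per library and the count above each bar. TMPRSS2 and NDRG1 have the tallest bars, 8 and 9 peaks in shFoxA1 R1881, and ERG and HERPUD1 have no peak in either shEV list.

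Peaks that overlapped by at least 1 bp across lists were merged into 29 regions. Of these, 16 had a peak in 2 or more lists and 13 in a single list. By gene, TMPRSS2 had 11 regions, NDRG1 10, SLC45A3, ACSL3 and ETV1 2 each, and HERPUD1 and ERG 1 each. Upstream of the TSS lay 21 of the regions, and 4 were within 1000 bp of it. The deposited peak score is the authors' own value. It is given below with its rank, the percent of peaks in the same list that score as high or lower, and it is not compared between lists.

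**Figure D2:**
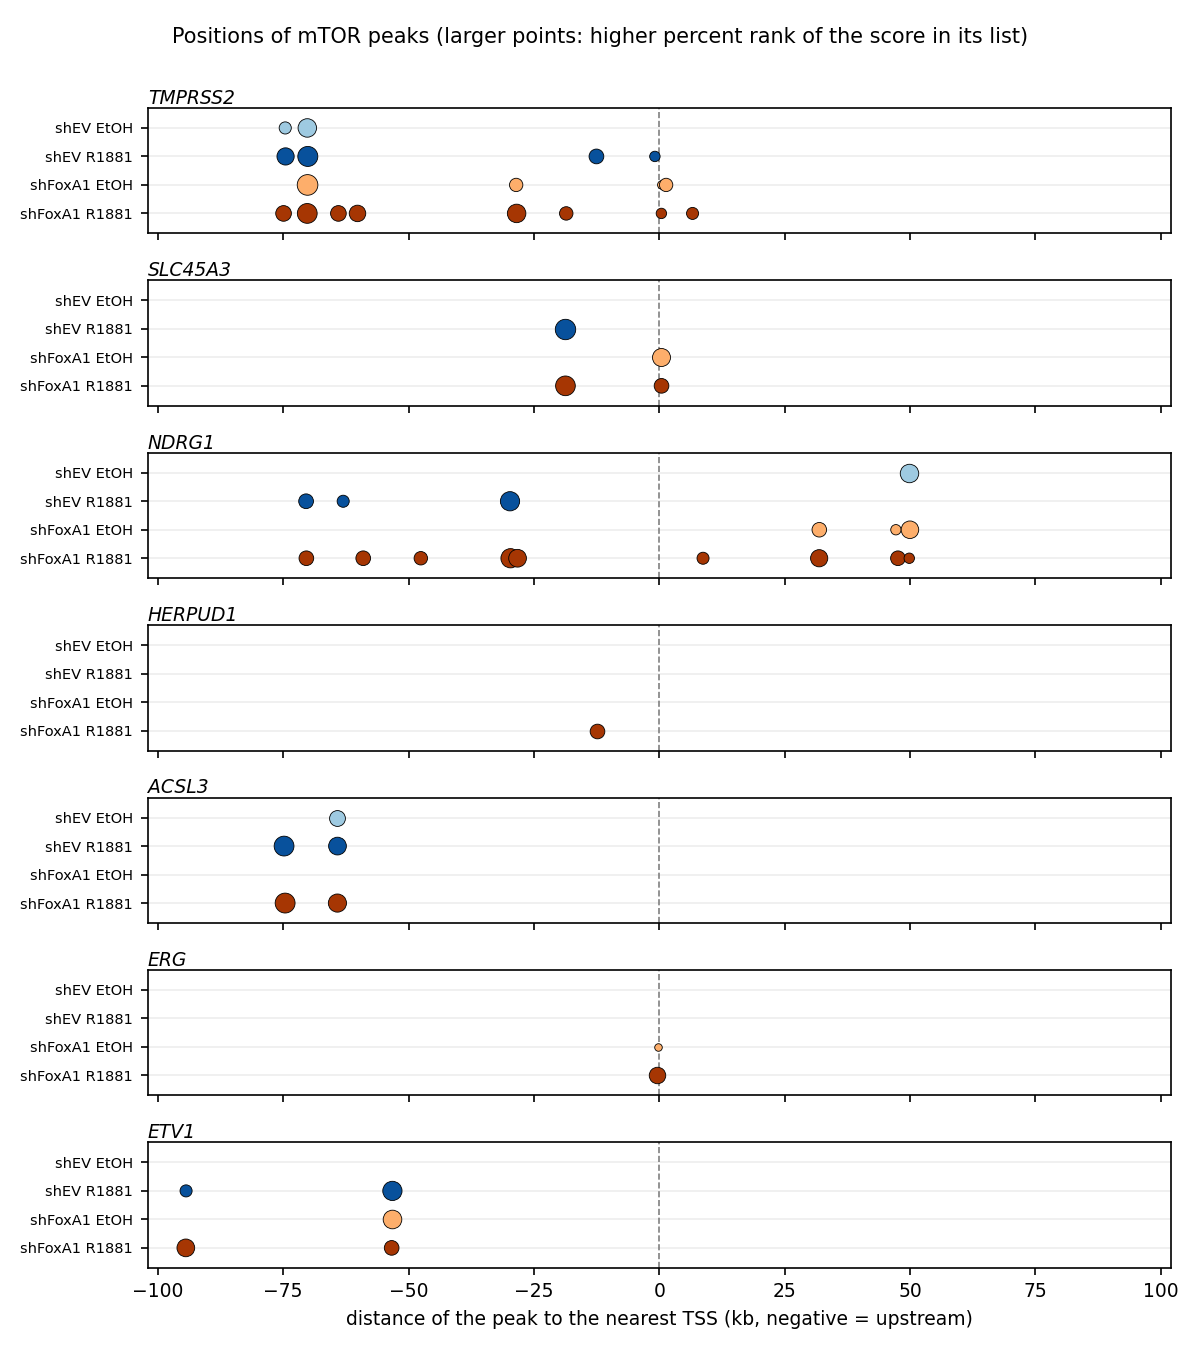
Signed distance of each mTOR peak to the nearest TSS in kb (horizontal axis) for the 7 genes, with 1 row per library and larger points for higher ranks of the score in that list. Most points lie to the left of the dashed line at the TSS, and the points of NDRG1 to the right of it are in shEV EtOH and both shFoxA1 lists.

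TMPRSS2 carried the only region of the 29 with a peak in all 4 lists. It lay 70.2 kb upstream of the TSS, in an L1MEg repeat of the LINE class (chromosome 21, 41578087 to 41578586 in shEV EtOH). The score was 105 in shEV EtOH (rank 74.1), 202 in shEV R1881 (rank 89.1), 429 in shFoxA1 EtOH (rank 95.7) and 175 in shFoxA1 R1881 (rank 87.0), the highest of the gene in every list. A neighbouring region 74.5 to 74.9 kb upstream had peaks in shEV EtOH (score 34), shEV R1881 (76) and shFoxA1 R1881 (57), and none in shFoxA1 EtOH.

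Closer to the TMPRSS2 start the lists had different peaks. The shEV R1881 list alone held a promoter peak 877 bp upstream (chromosome 21, 41508731 to 41509340, score 27, rank 14.6) and a peak 12.5 kb upstream (41520512 to 41520869, score 50, rank 42.3). Both shFoxA1 lists, and neither shEV list, had a peak inside intron 1 of 13. It lay at 527 bp from the TSS in EtOH (score 21, rank 6.16) and at 418 bp in R1881 (score 27, rank 14.5). Like the promoter peak of shEV R1881, these peaks ranked low in their lists. A further region 28.4 to 28.5 kb upstream was also found with both shFoxA1 libraries only, with a score of 42 in EtOH and 102 in R1881. shFoxA1 EtOH alone had a peak at 1363 bp (score 42). shFoxA1 R1881 alone had 4 regions, at 6.63 kb downstream and at 18.6, 60.2 and 64.0 kb upstream, with scores from 34 to 65. The 4 closely spaced regions around the start, from 6.63 kb downstream to 877 bp upstream, thus came from 3 lists, with gaps of 4755, 444 and 885 bp between them.

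SLC45A3, which encodes prostein, a transporter-like protein of prostate epithelium, had 2 regions that followed different contrasts. The region 18.7 kb upstream, in an L1MD2 repeat, was present in both R1881 lists and in neither EtOH list. It spanned 205698823 to 205699617 on chromosome 1 in shEV R1881 (score 288, rank 93.2) and 205698825 to 205699612 in shFoxA1 R1881 (score 164, rank 85.8), so its edges differed by at most a few bases. The score of 288 is the highest of the 12 peaks in shEV R1881. The region in intron 1 of 4 next to the start, annotated to a CpG island, was present in both shFoxA1 lists and in neither shEV list, with a score of 94 in EtOH (205679786 to 205680577) and 49 in R1881 (205679814 to 205680315). The capitals in the SLC45A3 window above are its end in shFoxA1 EtOH, which crosses the TSS.

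NDRG1, the N-myc downstream regulated gene 1, which stress and androgen induce, had 1 and 3 peaks in shEV cells with EtOH and R1881, and 3 and 9 in shFoxA1 cells. Its widest region, 29.7 to 29.8 kb upstream, was present in both R1881 lists only, at chromosome 8, 133326314 to 133327820 in shEV R1881 (1507 bp, score 135, rank 81.4) and 133326133 to 133327792 in shFoxA1 R1881 (1660 bp, score 132, rank 81.5). A weaker region 70.4 kb upstream followed the same pattern, with scores of 50 and 49. In the gene body, a peak in intron 12 of 15 about 49.8 kb from the TSS was called in shEV EtOH (score 105), shFoxA1 EtOH (84) and shFoxA1 R1881 (27), and was missing from shEV R1881. That region is the only 1 of the 29 that was lost with R1881 in shEV. Regions 31.9 kb and 47.2 to 47.6 kb from the TSS, inside the gene, belonged to both shFoxA1 lists and to neither shEV list. The other 5 NDRG1 regions were each in a single R1881 list, 4 of them in shFoxA1 R1881, with scores from 34 to 83.

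ACSL3, which encodes a long-chain acyl-CoA synthetase, had no peak in its 83.6 kb gene body and 2 regions upstream of it. The one 74.6 to 74.8 kb upstream was present in both R1881 lists and in neither EtOH list, with a score of 179 (rank 87.2) in shEV R1881 and 186 (rank 88.0) in shFoxA1 R1881. The one 64.2 to 64.3 kb upstream was present in shEV EtOH (58), shEV R1881 (85) and shFoxA1 R1881 (92), and absent from shFoxA1 EtOH, the list in which ACSL3 had no peak at all. HERPUD1, a gene of the endoplasmic reticulum stress response, had 1 peak in all 4 lists together, 12.4 kb upstream in an AluSx1 element in shFoxA1 R1881 (chromosome 16, 56919510 to 56919912, score 49, rank 41.7).

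Of the ETS genes, ERG had 1 region, annotated to the promoter of transcript NM_001243428 at the outer end of the gene, and only in the shFoxA1 lists. In shFoxA1 EtOH it was among the lowest-scoring peaks (score 15, rank 1.36, chromosome 21, 38660711 to 38661243). In shFoxA1 R1881 it was 1323 bp wide (38660452 to 38661774, score 65, rank 56.4) and took in the whole ERG window shown above. No other peak lay in the 295 kb ERG gene body in any list. ETV1 had 2 regions, both upstream and both in L1 elements, and no peak in its 100.2 kb gene body. The region 53.2 to 53.4 kb upstream, in an L1PA4 element, had a peak in shEV R1881 (score 135), shFoxA1 EtOH (113) and shFoxA1 R1881 (49). The region 94.4 kb upstream was present in both R1881 lists only (scores 34 and 83), and its peak in shFoxA1 R1881, at 94399 bp, is the farthest that the distance limit admitted. The nearest peak outside the limit was assigned to NDRG1 at 105818 bp in shEV R1881. In all, 9 peaks assigned to these genes lay beyond 100 kb, 8 of them at ETV1 and none in shEV EtOH.

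**Figure D3:**
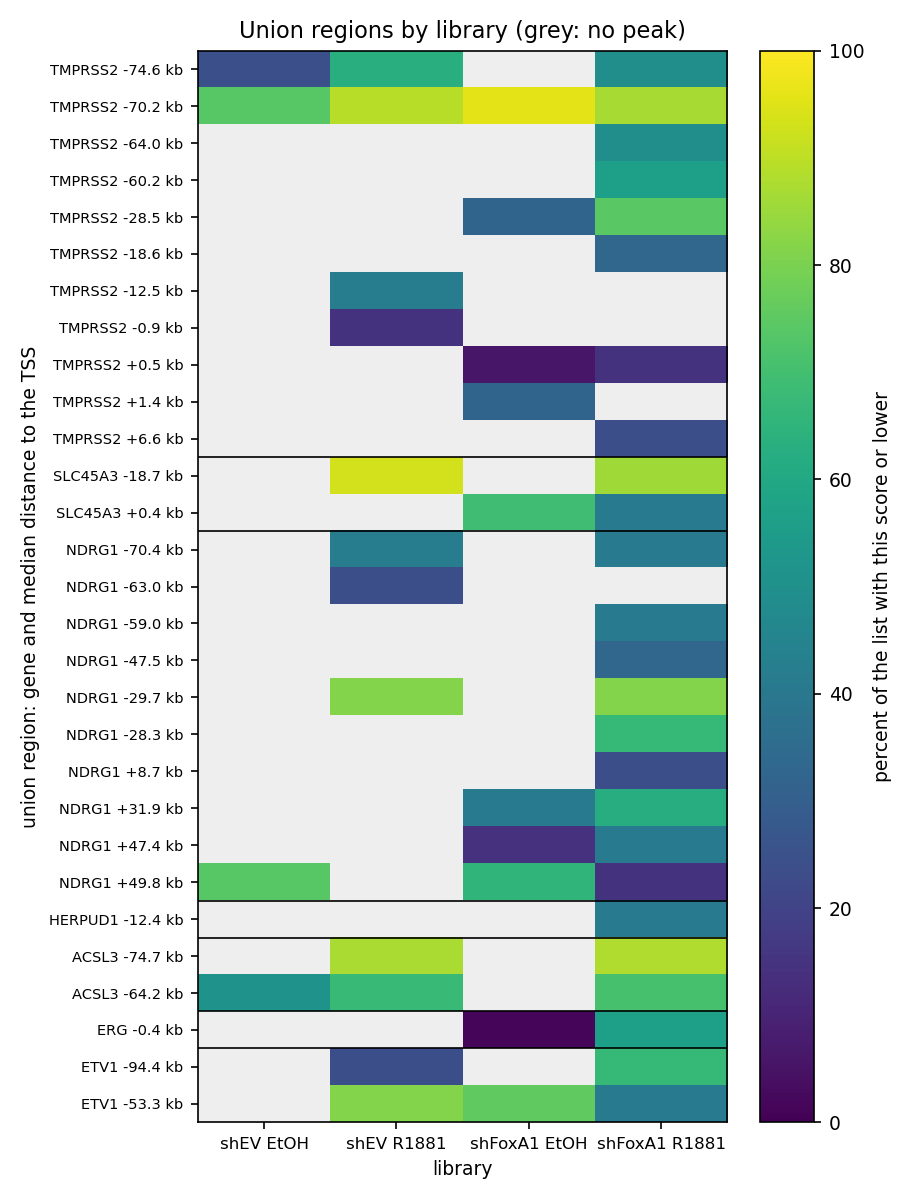
The 29 regions (rows, with gene and median distance to the TSS in kb) in the 4 libraries (columns). Colour gives the percent of peaks in the list with the same score or lower, and grey means no peak. The TMPRSS2 row at -70.2 kb is coloured in all 4 columns, and the first column is coloured in 4 rows.

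The first comparison sets R1881 against EtOH at these loci in cells with the empty vector. Of the 12 shEV R1881 peaks, 9 had no overlapping peak in shEV EtOH and are called gained, at TMPRSS2 (2), SLC45A3 (1), NDRG1 (3), ACSL3 (1) and ETV1 (2). That is 75%, where 46.3% of all shEV R1881 peaks within 100 kb of a TSS were gained. Of the 4 shEV EtOH peaks 1 was lost, at NDRG1, where 42.7% of all were lost. Gained peaks made up 90% of the 10 unshared ones (exact 95% interval 55.5 to 99.7, counting error only; peaks of 1 gene are not independent) and 53.7% over all peaks within the same distance. Of the 7 genes, 5 had more peaks with R1881 and none had fewer, against 17.7% and 15.4% of coding genes. ERG and HERPUD1 had no peak in either list. The coding genes, here and below, include those with no peak in either list of a comparison.

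In cells with the FoxA1 hairpin, 16 of the 25 peaks of shFoxA1 R1881 were gained over shFoxA1 EtOH, or 64%, where 45% of all peaks within 100 kb were. They lay at NDRG1 (6), TMPRSS2 (5), ACSL3 (2), SLC45A3, HERPUD1 and ETV1 (1 each). The 1 lost peak of 10 was the TMPRSS2 peak at 1363 bp, and 36.9% of all peaks were lost. The gained share of the 17 unshared peaks was 94.1% (71.3 to 99.9), and 58.3% over all peaks. With R1881, 6 genes had more peaks, none had fewer and ERG had 1 in each list, against 24.2% of coding genes with more and 16.4% with fewer.

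**Figure D4:**
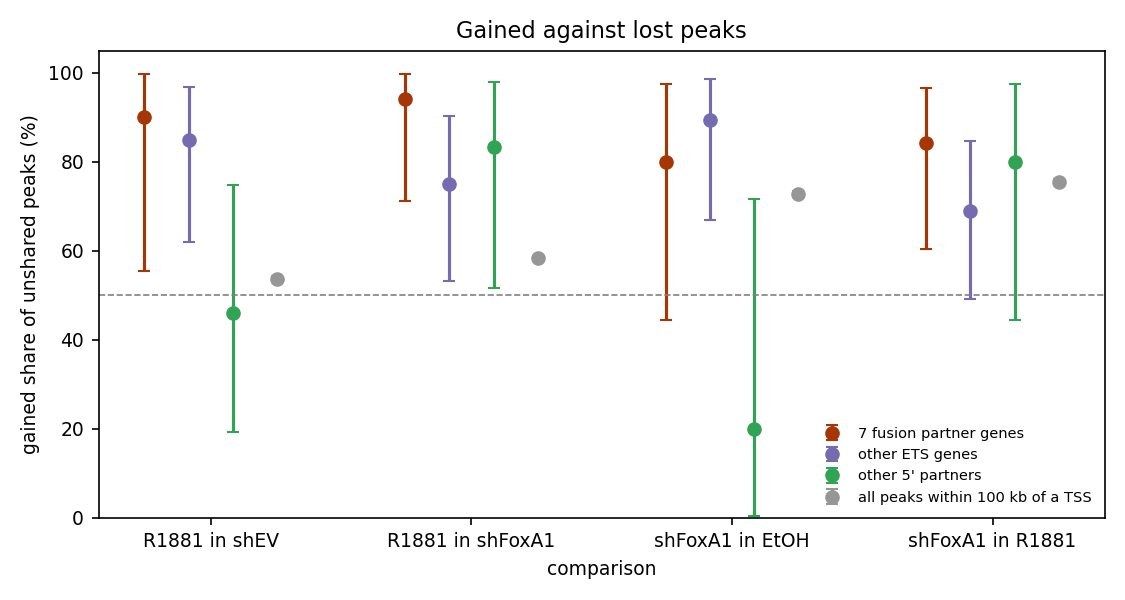
Share of unshared peaks that were gained, in percent (vertical axis), in the 4 comparisons, for the 7 genes, the other ETS genes, the other reported 5′ partners and all peaks within 100 kb of a TSS. Bars are exact 95% binomial intervals for counting error, and the dashed line is 50%. The 7 genes stand at 90% and 94.1% with R1881 and all peaks at 53.7% and 58.3%. With the hairpin the 7 genes stand at 80% and 84.2% and all peaks at 72.9% and 75.5%. The intervals treat peaks as independent, which peaks of 1 gene are not.

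A peak in both R1881 lists and in neither EtOH list was found at 5 regions, 1 each at SLC45A3, ACSL3 and ETV1 and 2 at NDRG1. They are 17.2% of the 29 regions, where 5.47% of the 47332 regions within 100 kb of a TSS had that pattern. The reverse pattern, both EtOH lists and neither R1881 list, was found at none of the 29 and at 2.96% of all. TMPRSS2 had no region of either pattern: its R1881 peaks in shEV at 877 bp and 12.5 kb upstream were absent from shFoxA1 R1881. Whether the R1881 effect differs between the hairpins was not tested, with 1 library in each group.

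The FoxA1 hairpin was compared with the empty vector in each treatment, a contrast in which the lists themselves differ in length. In EtOH, 8 of the 10 shFoxA1 peaks were gained (80%, against 50.5% of all), at TMPRSS2 (3), NDRG1 (2), SLC45A3, ERG and ETV1 (1 each), and 2 of 4 shEV peaks were lost (50%, against 27.3%), at TMPRSS2 and ACSL3. The gained share of unshared peaks was 80% (44.4 to 97.5), and that of all peaks was 72.9%. More peaks were found with the hairpin at 5 genes and fewer at 1, ACSL3, against 29.7% and 8.3% of coding genes. In R1881, 16 of 25 peaks were gained (64%, against 53.9%) and 3 of 12 were lost (25%, against 27.3%), the lost ones at TMPRSS2 (2) and NDRG1 (1). The gained share there was 84.2% (60.4 to 96.6), against 75.5% of all peaks, with more peaks at 5 genes and fewer at none, where 33.7% and 7.59% of coding genes had more and fewer. In both treatments the interval of the gained share, which is for counting error only, included the value of all peaks. When each list was limited to its 10000 highest-scoring peaks, the contrast in R1881 turned, to 0 gained and 3 lost. The limited lists start at different scores, 76 in shEV R1881 and 112 in shFoxA1 R1881. The 3 lost peaks, at TMPRSS2, ACSL3 and ETV1, overlap peaks of the full shFoxA1 R1881 list with scores of 57, 92 and 49. They are thus missing from the limited list and not from the full one. The share over all peaks under that limit is not given, so whether these genes differ from it was not tested.

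At 6 regions there was a peak in both shFoxA1 lists and in neither shEV list, 2 at TMPRSS2, 2 at NDRG1 and 1 each at SLC45A3 and ERG. They are 20.7% of the 29, where 7.36% of all regions had that pattern, and no region was in both shEV lists and neither shFoxA1 list (0.841% of all). A further 9 were in shFoxA1 R1881 alone (31%, against 20.4%), 3 in shEV R1881 alone (10.3%, against 7.14%), 1 in shFoxA1 EtOH alone (3.45%, against 14.7%) and none in shEV EtOH alone (6.11% of all). The single region found in all 4 lists is 3.45% of the 29, where 18.5% of all regions were.

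The regions found in both R1881 lists only and those found in both shFoxA1 lists only differed in GC content and in position. The 5 regions of both R1881 lists had a GC content of 36.9 to 48.0% (median 43.7), and lay 18.7 to 94.4 kb from the TSS, all upstream. The 6 regions of both shFoxA1 lists had 51.2 to 73.7% (median 60.8), and 3 of them, at TMPRSS2, SLC45A3 and ERG, lay within 1000 bp of the TSS. These ranges, of the median over the peaks of each region, did not overlap. The same direction held over all regions within 100 kb, with medians of 43.4% for the first pattern and 53.8% for the second. Their quartiles did overlap, at 39.1 to 48.8% and 42.7 to 64.9%. Of all regions of the 2 patterns, 7.92% and 35.9% lay within 1000 bp of a TSS. Peaks annotated to repeats occurred in 4 of the 5 regions of both R1881 lists and in 2 of the 6 of both shFoxA1 lists. Over all regions of these patterns the shares were 66.1% and 46.5%.

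**Figure D5:**
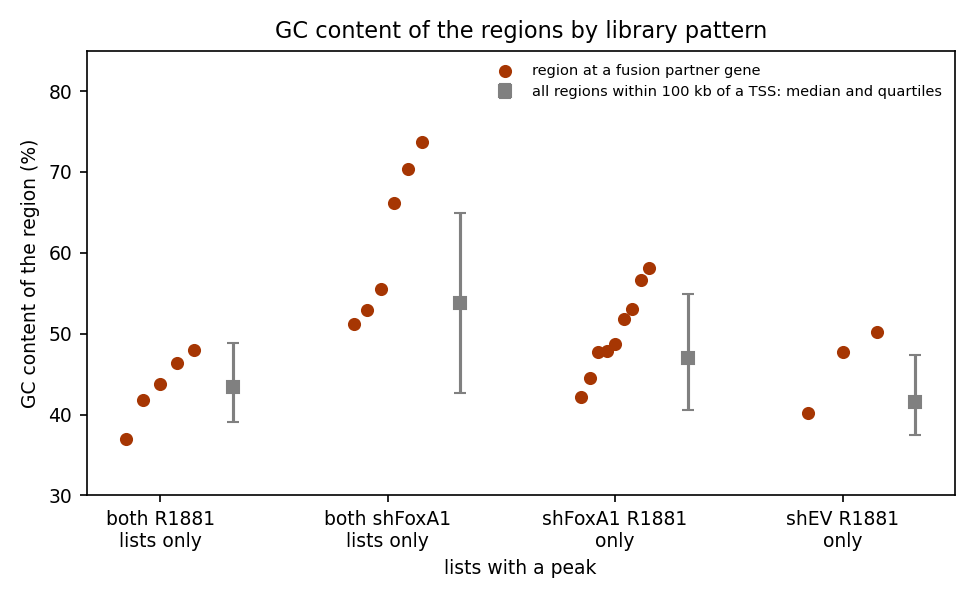
GC content in percent (vertical axis) of the regions at the 7 genes (points) by the lists in which they had a peak, beside the median and quartiles of all regions of that pattern within 100 kb of a TSS (grey squares and bars). The 5 regions of both R1881 lists lie between 36.9 and 48.0%, below the 6 regions of both shFoxA1 lists at 51.2 to 73.7%.

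The peaks of the 7 genes had a lower share annotated to repeats than all peaks in each list, a difference that was not tested. In shEV R1881 the shares were close. In this paragraph all peaks include those more than 100 kb from a TSS, unlike the peaks of the 7 genes. The shares were 50% (2 of 4), 66.7% (8 of 12), 40% (4 of 10) and 48% (12 of 25) in shEV EtOH, shEV R1881, shFoxA1 EtOH and shFoxA1 R1881, where 70.6%, 68.6%, 63.3% and 62.0% of all peaks were in repeats. Their median score was 81.5 in the first list, where all peaks had 58, and 80.5 in the second, where all peaks had 58. It was 45.5 in the third, against 66, and 57 in the fourth, against 65. Their median width was 490, 541, 471.5 and 535 bp in the same order, against 452, 445, 471 and 470 bp for all peaks. Scores above the median of the list were found in 2 of 4, 7 of 12, 4 of 10 and 9 of 25 peaks.

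Counts over the 4 lists placed TMPRSS2 (18 peaks) and NDRG1 (16) among the coding genes with most peaks, as 2.01% and 3.02% of coding genes had as many or more. ACSL3 and ETV1 (5 each), SLC45A3 (4), ERG (2) and HERPUD1 (1) followed, with 28.3%, 37.0%, 53.6% and 65.0% of coding genes at their number or above. In shFoxA1 R1881 alone, 0.564% of coding genes had at least the 9 peaks of NDRG1 and 0.819% at least the 8 of TMPRSS2. The coding genes with counts nearest to those of TMPRSS2 over the 4 libraries were DDAH1, with 3, 4, 4 and 8 peaks, and NIBAN2, with 2, 4, 3 and 8 (Euclidean distance 1 each, from 2, 4, 4 and 8). For NDRG1 4 genes tied at the smallest distance of 1.73.

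Among the 26 other genes of the ETS family, a peak within 100 kb was present at 4, 9, 14 and 15 genes in shEV EtOH, shEV R1881, shFoxA1 EtOH and shFoxA1 R1881, with 7, 21, 22 and 32 peaks. Of all coding genes, 39.7%, 40.6%, 51.7% and 54.4% had a peak in these lists. With R1881 in shEV, 8 of them had more peaks and 1 had fewer, against 17.7% and 15.4% of coding genes. Of their 20 unshared peaks, 85% were gained (62.1 to 96.8), against 53.7% over all peaks. That interval overlaps that of the 7 fusion genes, but a difference between the gene lists was not tested. With R1881 in shFoxA1, 8 had more and 5 fewer, against 24.2% and 16.4% of coding genes. Of 24 unshared peaks, 75% were gained (53.3 to 90.2), against 58.3% over all peaks. With the hairpin, 17 of their peaks were gained and 2 lost in EtOH (89.5%, 66.9 to 98.7), against 72.9% over all peaks. In R1881, 20 were gained and 9 lost (69.0%, 49.2 to 84.7), against 75.5% over all peaks. EHF, an ETS factor of epithelial cells, had the most regions (10) and 0, 5, 3 and 9 peaks in the 4 lists. It was followed by SPDEF, the prostate-derived ETS factor, with 7 regions and 3, 3, 2 and 5 peaks, and ETV6, a repressor, with 6 regions and 2, 5, 2 and 3 peaks. ETV4 and FLI1, which also take part in prostate fusions, had no peak in any list, and ETV5 had 1 in each shFoxA1 list. ELK4, whose transcript can be joined to that of its neighbour SLC45A3, had 2 peaks, both in shFoxA1 R1881, 1 of them across its first exon (chromosome 1, 205631570 to 205632373, score 27).

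In shEV the 6 other reported 5′ partners had 13 peaks with EtOH and 12 with R1881. Of these, 6 were gained and 7 lost with R1881 (gained share 46.2%, 19.2 to 74.9). FOXP1, a forkhead gene with 12 regions, had 8, 7, 3 and 9 peaks in the 4 lists, and FKBP5, a cochaperone gene, had 1, 3, 2 and 3. KLK2, the kallikrein gene next to that of prostate-specific antigen, had 1 peak, in shFoxA1 R1881. With R1881 in shFoxA1 these genes had 10 gained and 2 lost peaks (83.3%, 51.6 to 97.9). With the hairpin in EtOH they had 9 peaks against 13, with 1 gained and 4 lost (20%, 0.505 to 71.6), where the 7 genes had 8 gained and 2 lost. With the hairpin in R1881 they had 8 gained and 2 lost (80%, 44.4 to 97.5). Each of these intervals overlaps that of the 7 genes in the same comparison. The intervals give counting error only and treat peaks of 1 gene as independent. Whether the gene lists differ was therefore not tested. Over all peaks within 100 kb of a TSS, the gained share with R1881 was 53.7% in shEV and 58.3% in shFoxA1. With the hairpin it was 72.9% in EtOH and 75.5% in R1881.

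The nearest-gene rule left out peaks that lie close to these genes but are assigned to others. The ERG locus had a region 63.2 to 63.3 kb beyond its outer start that was present in all 4 lists and assigned to LINC00114, with scores of 147, 125, 177 and 186 in shEV EtOH, shEV R1881, shFoxA1 EtOH and shFoxA1 R1881. Near SLC45A3, a region 78.1 to 78.2 kb beyond the gene and assigned to NUCKS1 was present in both R1881 lists only (scores 104 and 92). Inside NDRG1, a peak in intron 14 of 15 in shFoxA1 EtOH was assigned to CCN4 (score 49). With every peak in or within 100 kb of the gene bodies counted, whatever gene was named, the numbers were 11, 19, 19 and 40. The gained share with R1881 was 72.2% in shEV (13 gained, 5 lost) and 88.9% in shFoxA1 (24 gained, 3 lost). A share over all peaks by this assignment is not given.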

How the data were processed

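mTOR chromatin immunoprecipitation libraries were sequenced as paired-end 150 bp reads. Per the submitters' processing notes, the tools included HOMER 4.11.1, MACS2, deepTools 3.5.0, BWA 0.7.12, Trimmomatic 0.36 and Picard 2.0.1, and the build was hg38. Neither their order nor the control and threshold of peak calling is given in the sources used here. Each file lists the peaks of 1 library, per the labels and the deposited peak names. Each peak carries a score deposited by the authors, whose definition is not stated. The deposited GC fraction (0 to 1) is printed as a percentage. The distance to the TSS, in bp, is as deposited. Coordinates count from 1. From these lists, overlaps of at least 1 bp, union regions, counts per gene and exact (Clopper-Pearson) 95% intervals were computed with Python 3.11.15, pandas 2.3.3 and scipy 1.17.1; the overlap code was tested on simulated data. A gained peak has no overlap in the second list, a lost peak none in the first; both describe thresholded lists. Genes were matched to RefSeq (GRCh38.p14) by identifier, all 7 members included. Named were all regions in all 4 lists, in both R1881 or both EtOH lists only, at promoters, the highest-scoring peak per gene and list, up to 4 other genes per list by region number, and up to 3 genes of similar counts; further ones were chosen after their values were seen. The members and gene lists were chosen with earlier results of these data known. Alternatives were a 50 kb limit, a 50% overlap, the 10000 highest-scoring peaks, no repeats, and gene assignment by position.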

Additional observations from a re-analysis of the deposited data

How the results depend on the processing

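No paired analysis was possible because each group is 1 library and the labels give no replicate numbers to use as a block. Requiring an overlap of 50% of the shorter peak left all 4 gained shares inside their intervals. Of the shares, those with R1881 also stayed inside under every alternative tried. They ran from 66.7% to 90% in shEV and from 75% to 94.1% in shFoxA1. Some rested on few peaks: 4 gained and 2 lost in shEV without repeats. In shFoxA1, 3 were gained and 1 lost among the highest-scoring peaks. No share over all peaks is given under any alternative, so a difference from all peaks was not tested there. The share with the hairpin in EtOH moved to 100% (7 gained, 0 lost) with a 50 kb limit. When each list was limited to its 10000 highest-scoring peaks, ties kept, it was 50% (1 gained, 1 lost). The share with the hairpin in R1881 then reversed to 0% (0 gained, 3 lost). Those lists start at scores of 76, 76, 103 and 112, so they leave fewer peaks. A peak lost under this limit can still be in the full list, as are the 3 lost with the hairpin in R1881. Peak numbers in shEV EtOH, shEV R1881, shFoxA1 EtOH and shFoxA1 R1881 were 1, 4, 8 and 15 with the 50 kb limit, 2, 7, 2 and 4 among the highest-scoring peaks, and 2, 4, 6 and 13 without repeats. By position, an alternative chosen after seeing the data, they were 11, 19, 19 and 40. Both R1881 lists had more peaks than their EtOH lists in all of these. Depth is unknown and no difference has a replicate check.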
